A study of Gallus gallus with 41 samples.

Results

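Neurons of the embryonic chick retina were compared at embryonic days 6 and 5 (E6 and E5), 1 cell to an array. The comparison used all 10 E6 cells and E5 replicates 1, 2 and 3, which makes 13 of the 41 cells of the series. The 3 E5 cells were chosen by their own measured signals, since they held ganglion cell transcripts and few cell cycle transcripts, whereas the E6 cells were taken as they came. Ganglion cell and cell cycle genes are therefore described here and support nothing. The labels give no strain, genotype or treatment for either age, and all cells came straight from papain-dissociated retinas without culture. Each cell's RNA was copied from its poly(A) tail, amplified over 35 PCR cycles and put on an Affymetrix chicken array. The labels name no embryo, so each age counts as 1 sample and no difference between the ages was tested. Standard deviations (SD) are over cells and describe their spread only.

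Retinal ganglion cells are among the earliest neurons that the retina makes. A progenitor leaves the cell cycle, switches on transcription factors such as ISL1 and those of the POU4F and EBF families, and grows an axon toward the optic nerve head. Microtubule regulators, motor proteins, guidance receptors and later synaptic proteins are made as the axon extends. In the chick many ganglion cells are born over the days sampled here, so cells of both ages could stand at different times after their last division, and no measure in these data dates that division.

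Values are log2 MAS5 signals, with signals under the median of the whole table raised to it (log2 5.0, called the floor). Detection of a transcript in a cell meant a signal no lower than the 80th percentile of its array. Where a gene had several probe sets, the one brightest on average in the 13 cells was read, and 6950 of 13008 genes passed a filter of detection in at least 3 of the 13 cells. That filter and that choice lean toward E6, which has more cells: a gene seen only at E5 had to be detected in all 3 cells. Differences are E6 mean minus E5 mean, and a difference of 3 log2 units (8-fold) or more is called past the fold.

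Some properties of the arrays went with age. The number of probe sets over log2 10 ran from 2573 to 4303 in E6 cells (median 3273.5), against 2510, 1789 and 2488 in E5 replicates 1, 2 and 3, so the groups did not overlap. The median of all 13008 gene differences was 0.41, and 9283 of them were positive, so listed medians below should be read against that shift. The shift was 0.20 without E6 replicate 7, and it ran from 0.20 to 0.53 as each of the 13 cells was left out in turn. The ACTB signal at the 3′ end of the transcript exceeded that at the 5′ end by a median of 1.43 log2 units in E6 cells (range 0.67 to 5.69), against 2.10, 4.11 and 3.09 in the 3 E5 cells. In 8 of 10 E6 cells this gap, which widens with shortened RNA or incomplete copying, lay below every E5 cell, and E6 replicates 5 and 7 were the exceptions. The gap of EEF1A had medians of 0.69 in E6 cells and 1.33 in E5 cells. That of GAPDH went the other way, with medians of 0.30 in E6 cells and 0.17 in E5 cells. The part of these array properties in the differences below was not tested. E6 replicate 7 had the highest background of the 13 arrays (log2 9.73, against 6.05 to 7.37 in the other E6 cells and 5.67 to 7.10 in the E5 cells). E6 replicate 1 carries E5 in 1 of its labels and E6 in its title and time point. Its mean correlation over 13620 probe sets was 0.42 with the other E6 cells and 0.36 with the E5 cells. Across all pairs the mean correlation was 0.39 among E6 cells, 0.41 among E5 cells and 0.32 between the ages. These correlations are descriptions over probe sets, and cells of an age share whatever embryo and handling they had in common.

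The 3 neuronal markers came with the choice of cells and are described here. They are no independent check of the E6 cells, and in the E5 cells their level was fixed by that choice. STMN2, a neuronal stathmin that regulates microtubules, ran from 15.54 to 18.75 in the 10 E6 cells (median 16.53), against 16.95, 17.25 and 15.09 in the 3 E5 cells. The ages overlapped, the difference was 0.19, and every cell was high. ISL1, a LIM homeodomain factor of ganglion cells that other retinal neurons also use, ran from 5.0 to 16.50 in E6 cells (median 14.18), against 15.31, 16.47 and 14.10 in E5 cells. Detection covered 8 of 10 E6 cells and 3 of 3 E5 cells, and E6 replicates 4 and 10 lay near or at the floor. The ISL1 difference was -2.67 on this probe set and 0.92 on a second one. That second probe set was detected in 7 of 10 E6 cells and in 2 of 3 E5 cells. EBF3, a helix-loop-helix factor of developing neurons, ran from 14.99 to 17.37 in E6 cells (median 15.75), against 16.20, 6.0 and 13.30 in E5 cells. All E6 cells held it, and E5 replicate 2 did not. The EBF3 difference of 4.02 was 1.10 without that cell and 6.20 without E5 replicate 1. STMN2 and EBF3 were thus high in all 10 E6 cells and ISL1, by the probe set read, was undetected in 2 of them. These values are given as a description and test no name for the cells of either age. The markers were chosen with earlier results of these data known, and ganglion cell genes chose the E5 cells. The E5 cells left outside the rule differ sharply in these markers. E5 replicates 4 and 5 gave 5.0 and 5.0 for STMN2, 5.32 and 5.0 for ISL1, 5.0 and 5.0 for EBF3, and 14.10 and 14.31 for PCNA, a clamp of DNA replication, which was at 6.48, 5.0 and 5.0 in the 3 E5 cells of the rule.

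**Figure D1:**
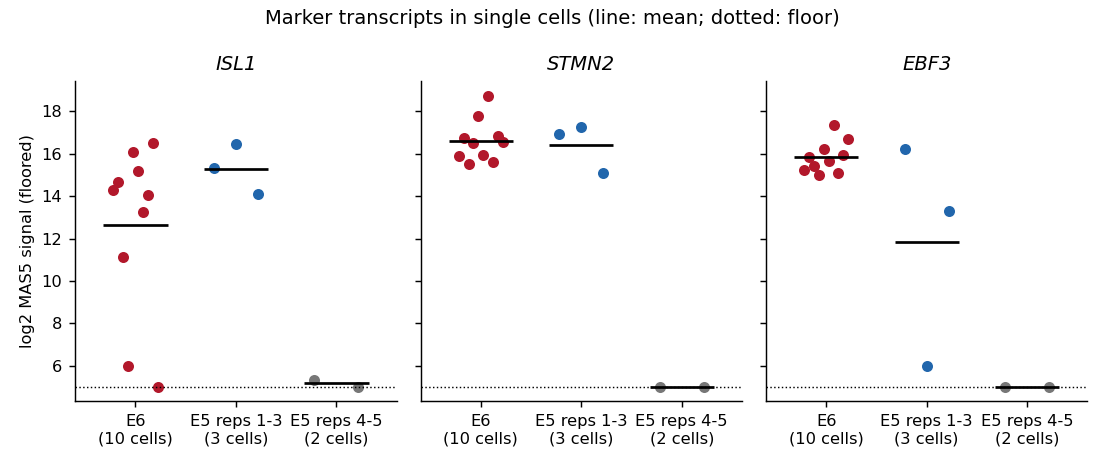
Floored log2 signal (vertical axis) of ISL1, STMN2 and EBF3 in single cells: 10 E6 cells, E5 replicates 1 to 3, and E5 replicates 4 and 5, which lie outside the rule. Each point is a cell, the line is the mean, and the dotted line is the floor. STMN2 is between 15.09 and 18.75 in all 13 cells of the comparison, and E5 replicates 4 and 5 are at the floor for it.

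Several abundant neuronal transcripts were near the same level at both ages. The ganglion cell list had a median difference of 0.22 over 20 genes measured. That median was -0.19 after quantile normalization, -0.45 with arrays set to a common 75th percentile, -0.07 without E6 replicate 7 and -0.25 without E5 replicate 3, so its sign rests on single cells. NEFL, the light neurofilament chain, averaged 15.45 ± 0.53 in E6 cells and 15.89 ± 0.79 in E5 cells (SD, n = 10 and 3 cells). PAX6, a homeodomain factor kept by ganglion and amacrine cells, averaged 15.68 ± 0.58 in E6 cells and 15.54 ± 0.56 in E5 cells. RBPMS2, an RNA-binding protein of ganglion cells, was detected in all 13 cells with a mean of 11.85 ± 1.31 at E6 and 14.60 ± 1.02 at E5. SNCG, gamma-synuclein, ran from 5.0 to 14.95 in E6 cells (median 14.20), against 5.0, 7.19 and 6.06 in E5 cells. Of the 17 listed ganglion cell genes that passed the filter, EBF3 and SNCG were higher at E6 past the fold (11.8%) and 0 were lower, where 12.6% and 5.09% of all genes passing the filter were. NEFM, the medium neurofilament chain, was the 1 of 20 listed genes measured whose ages did not overlap. All its E6 cells lay below, as for 0.647% of all genes passing the filter. NEFM ran from 9.58 to 14.20 in E6 cells (median 13.24), against 14.47, 16.12 and 14.66 in E5 cells. It is singled out after its values were seen.

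Over the 6950 genes, 878 (12.6%) had an E6 mean higher by at least 3 log2 units and 354 (5.09%) had a lower one. Without E6 replicate 1 these counts were 875 and 361, and without E6 replicate 7 they were 886 and 354. Higher genes made up 71.3% of those past the fold. That share was 57.8% after quantile normalization, 58.3% with arrays set to a common 75th percentile, and 41.01% with the floor raised to the highest background of the 13 arrays. Over probe sets in place of genes, 1496 of 13620 (11.0%) were higher and 521 (3.83%) lower. A stricter description asked that all E6 cells lie on one side of all E5 cells, with means at least 1 log2 unit apart: 95 genes (1.37%) had all E6 cells above and 45 (0.647%) had all E6 cells below.

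**Figure D2:**
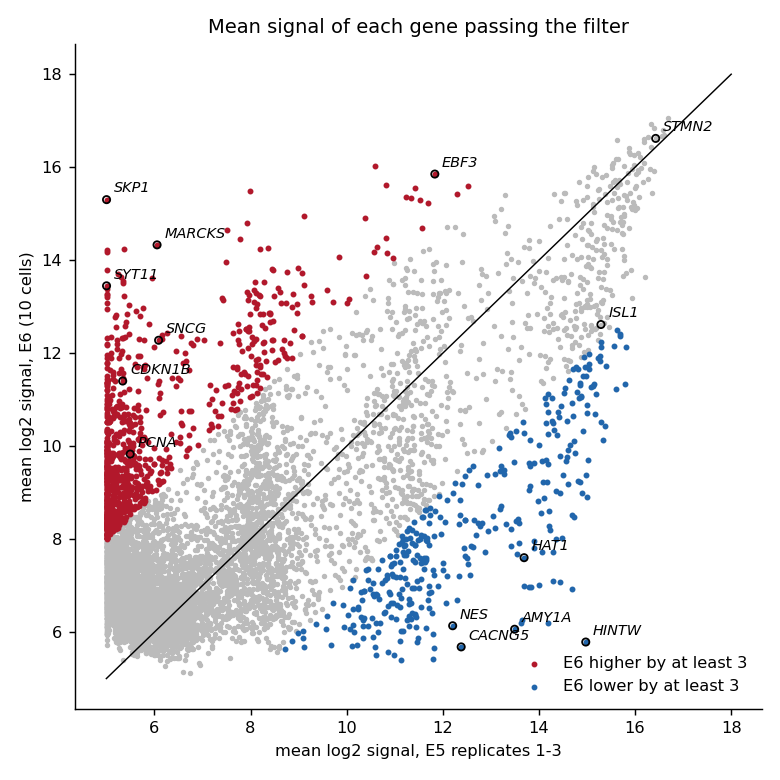
Mean floored log2 signal of each of the 6950 genes in the E6 cells (vertical axis) and in E5 replicates 1 to 3 (horizontal axis). Red genes are higher at E6 by at least 3 log2 units (878) and blue genes lower by at least 3 (354); STMN2 lies near the line of equality, SKP1 far above it and HINTW far below it.

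Detection separated a smaller group. In all, 139 genes (2.0%) were detected in at least 8 of 10 E6 cells and in 0 of 3 E5 cells, and 26 of these were detected in all 10. The 12 named were taken by detection first and then by size of difference, so all were detected in 10 of 10 E6 cells. They were SKP1, HNRNPK, PSMC6, NONO, KIF21A, FGFR3, RSRC2, IGF1R, STMN3, NDUFV2, PANK3 and IDH1, with differences from 8.21 to 10.30. SYT11, found in 9 of 10 E6 cells and described with the synaptic genes, was the 1 other gene of the 139 with a difference above 8.21, at 8.44. With detection set at the 90th percentile of each array, 70 of the 139 still met the rule, among them all 12. The 12 fall into protein turnover, RNA handling, the cytoskeleton, growth factor receptors and metabolism, and are taken in that order.

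SKP1 is the adaptor of SCF ubiquitin ligases, which mark proteins for destruction. It ran from 13.87 to 16.89 in E6 cells (median 15.23), against the floor in all 3 E5 cells. PSMC6, an ATPase of the proteasome base, ran from 13.00 to 15.46 in E6 cells (median 14.29), against the floor in all 3 E5 cells. For both genes the lowest E6 cell lay far above every E5 cell. HNRNPK, which binds pre-mRNA and mRNA, ran from 12.37 to 15.18 in E6 cells (median 14.62), against the floor in all 3 E5 cells. NONO, a nuclear protein of splicing and paraspeckles, ran from 12.55 to 16.07 in E6 cells (median 13.83), against 5.0, 6.11 and 5.0 in E5 cells. RSRC2, a protein rich in arginine and serine, had a mean of 13.39 ± 2.19 in E6 cells and lay at the floor in the 3 E5 cells. HNRNPK has 2 other probe sets on the array, which were detected in 0 of 10 E6 cells, and NONO's other probe set had a mean difference of 8.78.

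KIF21A, a kinesin that acts at axonal microtubules, ran from 7.52 to 15.28 in E6 cells (median 14.51), against the floor in all 3 E5 cells. E6 replicate 4 was the low cell at 7.52, and the next lowest was 12.42. STMN3, a stathmin related to STMN2, ran from 10.75 to 15.38 in E6 cells (median 13.34), against the floor in all 3 E5 cells. Its relative STMN2 was high in every cell of both ages. FGFR3, a receptor for fibroblast growth factors, ran from 12.58 to 16.02 in E6 cells (median 13.45), against 5.0, 5.70 and 5.0 in E5 cells. The name FGFR3 rests on a single probe set whose identifier shares its cluster number with the STMN3 probe sets. The signals of the FGFR3 and STMN3 probe sets correlated at 0.97 over the 13 cells. Both had been picked for detection in all 10 E6 cells and in 0 of 3 E5 cells. That correlation therefore largely follows from the choice and supports nothing. The other 3 FGFR3 probe sets were detected in 0 of 10 E6 cells. With that and the shared cluster number, signal of FGFR3 and of STMN3 cannot be told apart here. IGF1R, the receptor of insulin-like growth factor, ran from 11.53 to 16.61 in E6 cells (median 13.79), against 5.0, 5.93 and 5.0 in E5 cells. NDUFV2, a subunit of respiratory complex I, had a mean difference of 8.25 on the probe set read. Another NDUFV2 probe set was detected in 5 of 10 E6 cells and in 3 of 3 E5 cells, with a difference of -0.23. PANK3, an enzyme of coenzyme A synthesis, and IDH1, the cytosolic isocitrate dehydrogenase, both had a difference of 8.21.

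**Figure D3:**
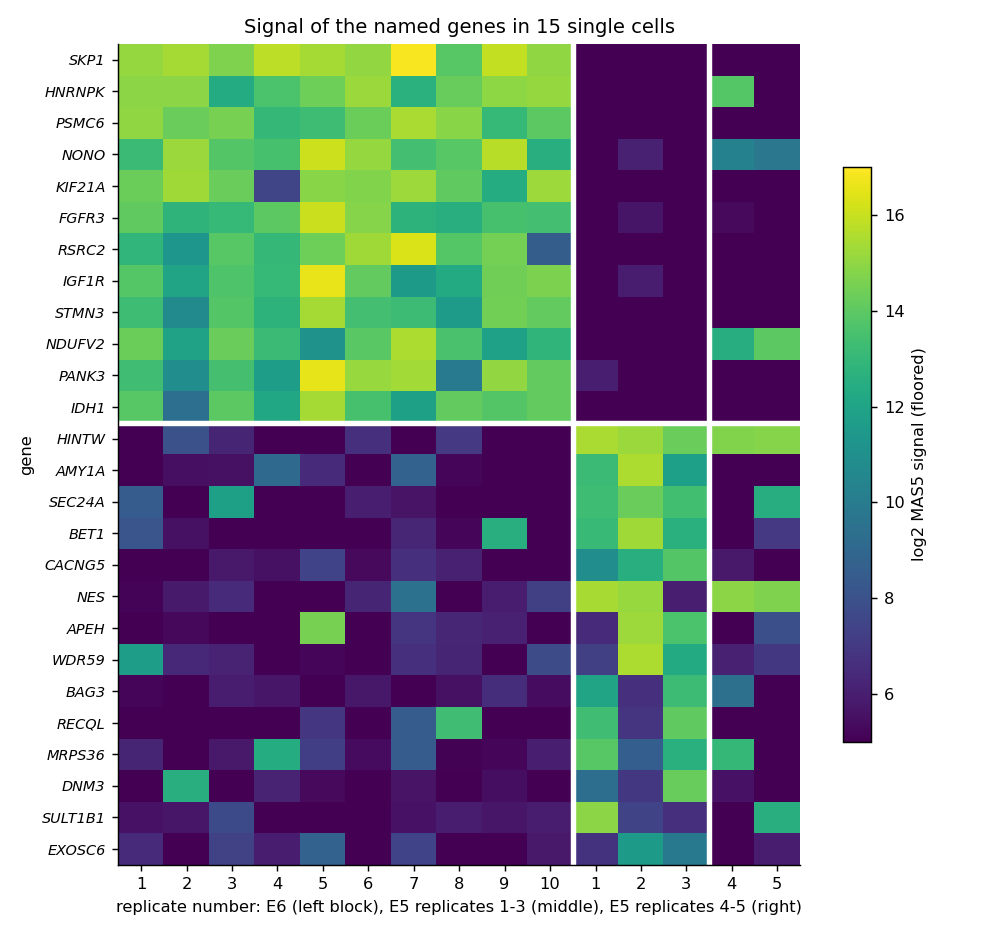
Floored log2 signal (colour) of the 12 named genes detected in all E6 cells and in no E5 cell of the rule (upper block) and of 14 genes detected in at most 2 E6 cells and in all 3 E5 cells (lower block), in E6 cells 1 to 10, E5 cells 1 to 3 and E5 cells 4 and 5. The upper block is high across the E6 columns, and HNRNPK, NONO and NDUFV2 are also high in E5 replicate 4 or 5.

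The same genes were also followed in the other cells of the series. Since the 139 genes are by rule common at E6, they are set beside the 1329 genes that were detected in at least 8 of 10 E6 cells whatever their state at E5. E5 replicates 4 and 5 both lacked 73 of the 139 (52.5%), against 22.5% of the 1329. All 6 E3 cells lacked 50 (36.0%), against 8.5%, and E3 cells and E5 replicates 4 and 5 together lacked 39 (28.1%), against 6.2%. All 3 E4 cells held 46 (33.1%), against 51.6%. At least 5 of 6 E9 cells held 115 (82.7%), against 83.9%, and at least 6 of 8 E14 cells held 35 (25.2%), against 68.5%. The 139 were thus seen less widely than the 1329, which include them, in the E3, E4, E14 and remaining E5 cells. At E9 they were seen about as widely. The 139 were picked for absence from 3 E5 cells and the 1329 were not. Lower shares in the remaining E5 cells and at other ages may therefore be partly built in by that choice. How much of them is built in was not tested. Among the 12 named genes, PSMC6, KIF21A, FGFR3, STMN3 and IDH1 were undetected in the E3 cells and in all 5 E5 cells. Of these, KIF21A was detected in 1 of 3 E4 cells, IDH1 in 1, STMN3 and FGFR3 in 0, and PSMC6 in 3. PSMC6 in the 3 E4 cells was at 12.94, 13.84 and 14.25, and SKP1 was at 14.86, 14.09 and 13.92. SKP1 was at the floor in all 5 E5 cells and in 5 of 6 E3 cells. Signals of SKP1 and PSMC6 were thus high at E4, at the floor at E5 and high again at E6, which is no steady course with age. By the probe set read, NDUFV2 was detected in 5 of 6 E3 cells and in E5 replicates 4 and 5, at 12.46 and 13.97. Among E5 cells only the 3 of the rule lacked signal on that probe set. All 12 genes were detected in at least 5 of 6 E9 cells, and 3 of the 12 in at least 6 of 8 E14 cells.

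Of the 6950 genes, HINTW had the most negative difference. HINTW, a gene of the W chromosome, which in birds only females carry, ran from 5.0 to 7.97 in E6 cells (median 5.0), against 15.48, 15.19 and 14.26 in the 3 E5 cells. The difference was -9.19 and the ages did not overlap. E5 replicates 4 and 5 were at 14.72 and 14.80, and the 6 E3 cells lay between 15.14 and 17.15. E6 replicate 1 was at the floor like most E6 cells. HINTW was detected in 0 of 6 E9 cells, where it ran from 5.0 to 6.61, and the single E7 cell was at 14.75. It ran from 7.76 to 9.73 in the 3 E4 cells and from 5.0 to 6.91 in the 8 E14 cells. The 2 E15 cells were at 11.17 and 15.50. A second HINTW probe set was on in 1 of 10 E6 cells and in 1 of 3 E5 cells. Sex was not recorded in the labels. The embryo's sex, the embryo and the age cannot be told apart in this comparison, which touches every difference given here.

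**Figure D4:**
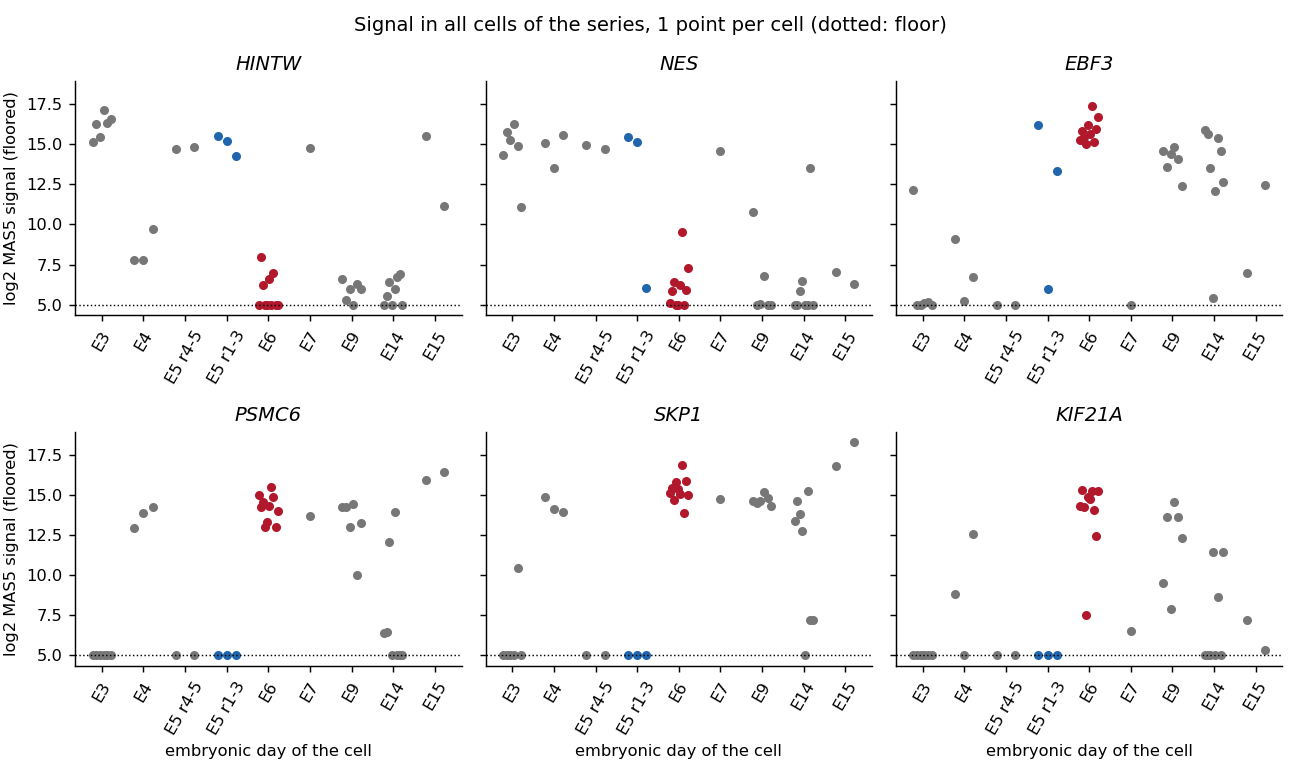
Floored log2 signal (vertical axis) of HINTW, NES, EBF3, PSMC6, SKP1 and KIF21A in every cell of the series by embryonic day, with E5 replicates 4 and 5 apart from replicates 1 to 3 (blue) and E6 in red. HINTW is high in all E3 and E5 cells and at most 7.97 at E6, and PSMC6 and SKP1 are high at E4 and E6 but at the floor in all 5 E5 cells.

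In the other direction, 101 genes (1.45%) were detected in at most 2 of 10 E6 cells and in 3 of 3 E5 cells. The 12 leading genes by detection, CDRT1, EVA1CL, FAM183A, ITGA7, LDB1, PAPLN, PPP1RL, PTRF, SLC15A2, SLCO3A1, TTC7A and WNT11B, were dim in the cells compared. Their differences ran from -1.65 to -0.75, and none of their E5 means exceeded 7.21, so they sat close to the background of the arrays. At other ages single cells were brighter, up to 13.65 for ITGA7 at E14 and 10.75 for PAPLN at E4. With detection set at the 90th percentile, none of the 12 was detected in all 3 E5 cells, and 7 of the 101 genes still met the rule. A further 14 genes of the 101 were lower at E6 past the fold, and these are named after their values were seen. Besides HINTW they were AMY1A, SEC24A, BET1, CACNG5, NES, APEH, WDR59, BAG3, RECQL, MRPS36, DNM3, SULT1B1 and EXOSC6. At the 90th percentile 7 of the 14 (NES, APEH, WDR59, BAG3, RECQL, DNM3 and EXOSC6) were detected in 2 of 3 E5 cells rather than all 3.

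AMY1A, an amylase, ran from 5.0 to 9.11 in E6 cells (median 5.35), against 13.20, 15.53 and 11.76 in the 3 E5 cells. CACNG5, a small protein that accompanies AMPA-type glutamate receptors, ran from 5.0 to 7.43 in E6 cells (median 5.43), against 10.87, 12.50 and 13.77 in E5 cells. BET1, a SNARE of transport between endoplasmic reticulum and Golgi, ran from 5.0 to 12.54 in E6 cells (median 5.08), against 13.07, 15.28 and 12.61 in E5 cells. None of the 3 overlapped between the ages, where 0.647% of all genes passing the filter had all E6 cells below. The 3 had been picked for detection in the E5 cells and rarity at E6. BET1 in E6 replicate 9 came close to its lowest E5 value. None of these genes was detected in any of the 6 E3 cells, and each was detected in 1 of 6 E9 cells. SEC24A, a coat protein of vesicles leaving the endoplasmic reticulum, ran from 5.0 to 11.84 in E6 cells (median 5.0), against 13.28, 14.24 and 13.36 in E5 cells. Its probe sets disagree: another SEC24A probe set was on in 4 of 10 E6 cells and in 0 of 3 E5 cells, with a difference of 3.52. Of 3 AMY1A probe sets only the one read here showed the difference. The differences of WDR59, APEH and DNM3 also rested on the probe set read. Their other probe sets differed by 0.17 and 0.88 for WDR59, by 0.34 for APEH, and by 0.001 and -0.69 for DNM3. A second BAG3 probe set was lower at E6 as well, by -2.77.

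NES, nestin, an intermediate filament of neural progenitors, ran from 5.0 to 9.52 in E6 cells (median 5.90), against 15.44, 15.15 and 6.03 in the 3 E5 cells. E5 replicates 1 and 2 thus held it at the level of the other E5 cells outside the rule (14.93 and 14.68) and of E3 cells (11.08 to 16.27), whereas E5 replicate 3 lay among the E6 cells. The difference of -6.07 was -9.16 without that cell. Single E5 cells also weighed on others of the 14: WDR59 stood at -3.30 and EXOSC6 at -2.11 without E5 replicate 2, SULT1B1 at -1.33 without E5 replicate 1, and DNM3 at -2.13 and EXOSC6 at -2.96 without E5 replicate 3. The highest NES value at E6 was in replicate 7, the array of high background.

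Among the lists of genes, proteasome subunits stood furthest above the shift of all genes. The proteasome is the barrel-shaped protease that degrades ubiquitin-tagged proteins, with a catalytic core and a regulatory particle. Its 29 measured subunits had a median difference of 1.79, against 0.41 over all genes. It was 1.74 after quantile normalization and 1.47 with a common 75th percentile. Of 28 passing the filter, 11 were higher past the fold and 1 lower, where 12.6% and 5.09% of all genes were. Those higher included PSMC6, PSMB3, a subunit of the core, and PSMD7, of the lid of the regulatory particle. PSMB3 ran from 8.27 to 14.51 in E6 cells (median 12.64), against 6.06, 7.10 and 5.33 in E5 cells. PSMD7 ran from 5.0 to 14.44 in E6 cells (median 11.63), against the floor in all 3 E5 cells. A second PSMD7 probe set passed the filter and differed by less than 1 log2 unit. In 3 of the 29 subunits, PSMC6, PSMB3 and PSMD1, all E6 cells lay above all E5 cells, where 1.37% of all genes passing the filter did. PSMC6 had already been picked for detection at E6 and in none of the 3 E5 cells. The 2 most abundant subunits went the other way, with PSMC2 at 14.82 ± 1.91 in E6 cells and 15.54 ± 0.54 in E5 cells, and PSMA2 at 13.60 ± 1.89 in E6 cells and 14.93 ± 1.15 in E5 cells. PSMD14, the deubiquitinase of the lid, was lower at E6 by -3.67. When E6 replicate 1 was counted with the E5 cells, the proteasome median was 0.80 and no longer the highest. The list of HMG and nuclear lamina genes then stood at 0.81. The proteasome median ran from 1.41 to 2.51 as each cell was left out in turn.

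The neuronal cytoskeleton held abundant genes at an even level and others that were higher at E6. The 31 measured genes had a median difference of 0.44, close to that of all genes, and of -0.27 with a common 75th percentile. Without E6 replicate 7 the list and all genes both stood at 0.20, and without E5 replicate 2 the list stood at 0.79. Of 28 passing, 7 were higher past the fold (25%, where 12.6% of all genes were), namely KIF21A, MARCKS, STMN3, DPYSL2, KIF5C, DCLK1 and MAP2, and STMN4 was lower by -3.04 (3.57%, where 5.09% were). Of the 7, KIF21A, STMN3 and DCLK1 were detected in 0 of 3 E5 cells, DPYSL2 in 1, and MARCKS, KIF5C and MAP2 in 2. MARCKS, which binds actin and membrane in growth cones, ran from 12.17 to 15.61 in E6 cells (median 14.36), against 7.09, 5.0 and 6.08 in the 3 E5 cells, with no overlap. E5 replicates 4 and 5, outside the rule, were at 5.0 and 13.9, and the latter lay inside the E6 range. In all, 3 of the 31 measured genes had all E6 cells above all E5 cells and 1 had all below. Of all genes passing the filter, 1.37% and 0.647% did. DPYSL2, a collapsin response mediator that binds tubulin, had a mean of 14.25 ± 1.50 in E6 cells and 8.20 ± 4.90 in E5 cells, where 1 of 3 cells held it. The most abundant members were even: STMN1 averaged 16.64 ± 1.39 in E6 cells and 16.28 ± 1.33 in E5 cells.

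Synaptic genes and ion channels followed the same mixed picture. SYT11, a synaptotagmin of vesicle membranes, ran from 8.47 to 15.92 in E6 cells (median 14.01), against the floor in all 3 E5 cells. Its signal was also at the floor in E5 replicates 4 and 5, and it was detected in 0 of 6 E3 cells and 6 of 6 E9 cells. SYT1, SYT4 and SNCG were the other synaptic genes higher past the fold (4 of 21 passing, 19.0%, where 12.6% of all genes were). DNM3, a dynamin, was lower by -4.15 on the probe set read, or by -2.13 without E5 replicate 3. Its 2 other probe sets differed by 0.001 and -0.69. SNAP25, a SNARE of the presynaptic membrane, was found in 10 of 10 E6 cells (mean 12.66 ± 1.36) and in 2 of 3 E5 cells (mean 11.57 ± 4.85). GRIA2, an AMPA-type glutamate receptor subunit, ran from 5.54 to 15.62 in E6 cells (median 12.76), against the floor in all 3 E5 cells. GRIA3, of the same receptor family, had a median of 8.74 in E6 cells, against 14.26, 5.0 and 14.83 in E5 cells. Of its 2 other probe sets, which passed the filter, 1 was higher at E6 by at least 1 log2 unit. CACNA1B, the pore of N-type calcium channels, was higher by 4.21. CHRNB3, a nicotinic receptor subunit, ran from 7.90 to 15.55 in E6 cells (median 14.10), against 15.51, 15.44 and 14.65 in E5 cells. SCN3B, a sodium channel beta subunit, averaged 14.71 ± 1.26 in E6 cells and 14.87 ± 0.57 in E5 cells. In all, 2 of 23 channels and receptors passing the filter were higher past the fold (8.7%) and 0 lower, where 12.6% and 5.09% of all genes were. The list medians were 0.53 for synapse and 0.51 for channels. The channel median was 0.00 after quantile normalization and 0.29 without E6 replicate 7, and the synapse median was 0.32 without E5 replicate 2.

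Axon guidance and adhesion genes had a median difference of 0.62 over 52 genes, which was 0.38 without E6 replicate 7. Of 33 passing, SEMA6A, NEO1, GPM6A and SLIT2 were higher past the fold (12.1%) and EPHB2 and PLXNC1 lower (6.06%), close to the 12.6% and 5.09% of all genes. SEMA6A, a membrane semaphorin, ran from 5.0 to 15.14 in E6 cells (median 11.08), against the floor in all 3 E5 cells. NEO1, neogenin, a netrin and RGM receptor, was found in 6 of 10 E6 cells and in 0 of 3 E5 cells. GPM6A, a membrane glycoprotein of growing neurites, ran from 14.25 to 16.47 in E6 cells (median 15.37), against 14.06, 5.0 and 14.61 in E5 cells. The difference of 4.14 was 1.03 without E5 replicate 2. RTN1, a reticulon of the neuronal endoplasmic reticulum, was even on the probe set read, at 15.84 ± 1.14 in E6 cells and 15.40 ± 0.85 in E5 cells. Of its 2 other probe sets, 1 was higher at E6 by at least 1 log2 unit.

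RNA-binding proteins of neurons included genes in each direction. CELF2, a splicing regulator, ran from 5.0 to 14.55 in E6 cells (median 12.37), against 5.0, 5.0 and 5.09 in E5 cells. It was at 12.84 and 5.0 in E5 replicates 4 and 5. MSI1, Musashi, was higher by 5.93 on the probe set read. Of its 5 other probe sets, 2 passed the filter, and none differed by 1 log2 unit or more. PCBP3, a poly(C)-binding protein, ran from 7.46 to 15.42 in E6 cells (median 12.12), against 15.64, 16.73 and 15.05 in E5 cells, where the highest E6 cell alone reached the E5 values. With E5 replicates 4 and 5 added, which were at 5.0 and 5.06, the PCBP3 difference was 0.63 and so turned sign. ELAVL4, the RNA-binding protein HuD, averaged 13.06 ± 2.47 in E6 cells and 15.01 ± 0.26 in E5 cells on the probe set read. Its 1 other probe set passed the filter and went the other way, higher at E6 by at least 1 log2 unit. Of 19 passing, 3 were higher past the fold (15.8%) and 1 lower (5.26%), close to the 12.6% and 5.09% of all genes. The median of 0.46 over 22 genes was -0.17 after quantile normalization, -0.01 with a common 75th percentile and -0.04 without E5 replicate 3.

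Some genes tied to progenitors and the cell cycle were detected in both groups. Of 35 cell cycle genes measured, 12 passed the filter, and PCNA alone was higher past the fold (8.33%, where 12.6% of all genes were). RRM1, a subunit of ribonucleotide reductase, and KIF20A, a mitotic kinesin, were each detected in 7 of 10 E6 cells, and in 1 and 2 of 3 E5 cells. KIF20A was at the floor in E5 replicates 4 and 5, where PCNA was high. It was detected in 3 of 6 E3 cells, in 2 of 3 E4 cells and in 6 of 6 E9 cells. Whether its signal marks dividing cells was not tested. PCNA ran from 5.0 to 13.75 in E6 cells (median 10.84), and 6 of 10 E6 cells held it. The E5 cells had been picked for few such transcripts and the E6 cells had not, so this difference and the choice of cells cannot be told apart. CCNA2, the S and G2 phase cyclin, was likewise detected in 6 of 10 E6 cells and 1 of 3 E5 cells. CDKN1B, the inhibitor p27 that holds cells out of the cycle, ran from 5.91 to 14.57 in E6 cells (median 12.35), against 5.0, 6.01 and 5.0 in E5 cells. It was detected in 0 of 6 E3 cells and 4 of 6 E9 cells. A second CDKN1B probe set passed the filter and differed by less than 1 log2 unit. CDKN1B was the 1 gene past the fold among 9 cell cycle exit genes passing (11.1%, where 12.6% of all genes were higher). BTG1 differed by 2.33 with both ages spanning floor and high signal. Of 21 progenitor genes measured, 11 passed the filter, and PAX6 and VIM were detected in all 13 cells. Of these 11, FGFR3 (with the limit given above) and FABP7 were higher past the fold, and NES and DKK3 lower (18.2% each way, where 12.6% and 5.09% of all genes were). FABP7, a lipid carrier of radial glia, was higher by 3.20, or by 2.63, 2.83 and 2.57 without E6 replicates 1, 8 and 9. VIM, vimentin, was abundant in both groups, at 15.35 ± 0.74 in E6 cells and 16.07 ± 0.91 in E5 cells.

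In the Notch pathway, through which neighbouring cells hold each other back from differentiation, LFNG, a glycosyltransferase that modifies the receptor, was higher by 4.41, and PSEN2, a catalytic subunit of the protease that releases its active part, was lower by -3.85. They were 1 of 11 Notch genes passing in each direction (9.09% each), where 12.6% of all genes were higher and 5.09% lower. LFNG was found in 6 of 10 E6 cells and in 0 of 3 E5 cells. A second LFNG probe set passed the filter and differed by less than 1 log2 unit. PSEN2 stood at -1.94 without E5 replicate 2, at -2.75 without E5 replicate 1 and at -6.87 without E5 replicate 3. Of 8 neurogenic genes passing, MYT1 alone was past the fold (12.5%, where 12.6% of all genes were higher). MYT1, a zinc finger factor of new neurons, was higher by 3.50, which was 6.23, 2.37 and 1.90 without E5 replicates 1, 2 and 3. NHLH2, a helix-loop-helix factor of new neurons, was detected in all 13 cells, at 11.77 ± 2.62 in E6 cells and 10.97 ± 1.55 in E5 cells. It was at the floor in E5 replicates 4 and 5.

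Chromatin proteins of the HMG and lamina list had a median difference of 0.88 over 29 genes. This median was 0.16 after quantile normalization, 0.32 with a common 75th percentile, 0.34 without E5 replicate 2 and 0.57 without E6 replicate 6. SET, a histone chaperone, ran from 6.52 to 16.54 in E6 cells (median 12.95), against the floor in all 3 E5 cells. HMGB3 ran from 14.05 to 16.31 in E6 cells (median 14.73), against 8.32, 5.11 and 13.89 in E5 cells. Both genes were without overlap between the ages, 2 of 29 measured, where 1.37% of all genes passing the filter had all E6 cells above. The HMGB3 difference of 5.83 was 3.84 without E5 replicate 2. HMGB3 was at 6.51 and 12.99 in E5 replicates 4 and 5. TET1, which oxidises methylated cytosine, had a median of 12.26 in E6 cells, against the floor in all 3 E5 cells, yet was at 14.26 and 14.39 in E5 replicates 4 and 5. HAT1, the acetyltransferase of newly made histone H4, ran from 5.0 to 13.42 in E6 cells (median 6.70), against 12.97, 13.17 and 14.93 in E5 cells, and E5 replicates 4 and 5 also held it at 14.16 and 14.92. H2AFZ, the variant histone H2A.Z, averaged 12.55 ± 1.62 in E6 cells and 14.37 ± 0.98 in E5 cells.

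Transcripts of general upkeep were high at both ages. Of 66 ribosomal protein genes, all passed the filter, 41 had a lower E6 mean, and the median difference was -0.40, on the other side of 0 from that of all genes. It was -0.46 after quantile normalization and -0.99 with a common 75th percentile, but 0.04 without E5 replicate 2, -0.23 without E6 replicate 10 and -0.78 without E5 replicate 3. RPS6 averaged 16.58 ± 0.99 in E6 cells and 15.62 ± 1.18 in E5 cells, and RPS3A averaged 16.60 ± 1.32 in E6 cells and 16.18 ± 1.11 in E5 cells. In all, 6 ribosomal genes were higher past the fold (9.09%, where 12.6% of all genes were), among them RPLP2, RPL11 and RPL7L1, a paralog rather than a ribosomal subunit, and 2 were lower (3.03%, where 5.09% were). RPLP2, of the ribosomal stalk, ran from 8.74 to 13.82 in E6 cells (median 10.57), against 5.0, 5.67 and 5.0 in E5 cells. It was at 12.75 and 10.70 in E5 replicates 4 and 5. RPL11 averaged 15.56 ± 0.69 in E6 cells, against 15.00, 5.0 and 14.26 in E5 cells, and its difference of 4.14 was 0.93 without E5 replicate 2.

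Of 59 genes of mitochondrial respiration passing the filter, 9 were higher past the fold (15.3%, where 12.6% of all genes were) and 8 lower (13.6%, where 5.09% were). The median difference was -0.13, and -0.83 after quantile normalization and -0.79 with a common 75th percentile. It ran from -0.30 without E6 replicate 7 to 0.20 without E5 replicate 3 as each cell was left out, with the other sign in 5 of the 13 cases. UQCRB, of complex III, was found in 7 of 10 E6 cells and in 0 of 3 E5 cells. UQCRQ, of the same complex, ran from 5.0 to 13.54 in E6 cells (median 7.73), against 13.69, 14.10 and 12.95 in E5 cells. ATP5B, a subunit of ATP synthase, averaged 14.40 ± 0.72 in E6 cells and 15.19 ± 0.54 in E5 cells. ATP5F1AZ, the other of the 2 most abundant genes of the list, went the other way with a difference of 1.89. It averaged 14.95 ± 1.68 in E6 cells, against 10.26, 14.48 and 14.42 in the 3 E5 cells. In glycolysis, HK1, hexokinase, was the 1 gene of 16 past the fold (6.25%, where 12.6% of all genes were higher). It ran from 12.44 to 14.48 in E6 cells (median 14.04), against 14.75, 7.21 and 5.0 in E5 cells. Its difference of 4.83 was 7.71 without E5 replicate 1 and 2.84 without E5 replicate 3. GAPDH, ACTB and ENO1 differed by 0.09, 0.23 and 0.36. HPRT1, of purine salvage, was the 1 housekeeping gene of 15 past the fold (6.67%, where 12.6% of all genes were higher). It was at the floor or near it in all 5 E5 cells.

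Transcripts known to respond to cell dissociation included several that were higher at E6. Of 14 genes of that list passing the filter, 6 were higher past the fold and 1 lower, where 12.6% and 5.09% of all genes were. The median over 21 genes was 0.78, 0.52 to 0.58 under the other array scalings, and 1.79 without E5 replicate 1. DNAJB6, a co-chaperone, ran from 5.0 to 14.43 in E6 cells (median 12.39), against the floor in all 3 E5 cells. HSP90AB1, a constitutive chaperone, ran from 10.28 to 14.99 in E6 cells (median 13.41), against 6.01, 5.0 and 12.82 in E5 cells. It was at 14.58 and 13.49 in E5 replicates 4 and 5. KLF6, an early response factor, was higher by 4.95, and DUSP1, an early response phosphatase, was lower by -3.47. The most abundant chaperones were even or lower on the probe sets read. HSP90AA1 averaged 15.45 ± 0.37 in E6 cells and 15.56 ± 0.81 in E5 cells. Its 1 other probe set passed the filter and was higher at E6 by at least 1 log2 unit. HSPA8 averaged 14.64 ± 0.56 in E6 cells and 15.63 ± 1.32 in E5 cells. The mean over the list in a cell ran from 7.79 to 9.72 in E6 cells (median 9.35), against 8.48, 6.81 and 7.70 in E5 cells, of which replicate 1 lay inside the E6 range. Its part in the other differences was not tested.

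**Figure D5:**
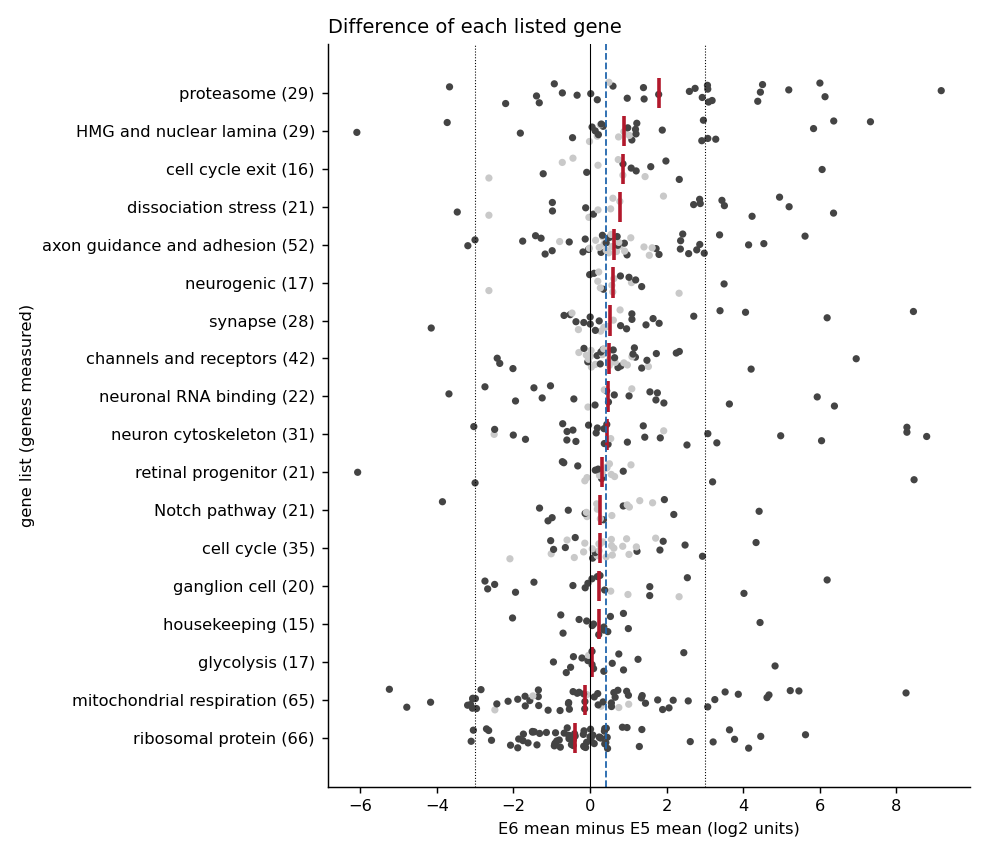
E6 mean minus E5 mean in log2 units (horizontal axis) for every measured gene of 18 lists, 1 point per gene, grey where the gene did not pass the filter. Red bars are list medians, the dashed line is the median of all genes (0.41), and dotted lines mark 3 log2 units in each direction. The proteasome median is 1.79 and the ribosomal protein median is -0.40.

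Markers of other cells that the pipette could have drawn were mostly dim but bright in some cells of both ages. The 10 lists of such markers held 119 entries measured, some genes entering more than 1 list. Of these, 25 passed log2 10 in at least 1 of the 13 cells and 29 were detected in none. The matching shares over all genes were not computed. The filter was passed by 43 of the 119, and by 6950 of all 13008 genes. PAX6, ISL1, VIM and NHLH2, which the ganglion cell, progenitor and neurogenic lists also hold, are among the 25. SLC18A3, the vesicular acetylcholine transporter of starburst amacrine cells, ran from 5.0 to 13.43 in E6 cells (median 6.16), against 12.39, 14.87 and 10.29 in the 3 E5 cells, and E6 replicates 1 and 6 lay among the E5 values. It was the only 1 of 6 amacrine genes passing that was past the fold (16.7%, where 5.09% of all genes were lower). RXRG, a nuclear receptor of developing photoreceptors, ran from 5.0 to 11.17 in E6 cells (median 5.95), against 14.33, 13.33 and 5.0 in E5 cells. Its difference of -4.03 was -2.31, -2.81 and -6.97 without E5 replicates 1, 2 and 3. CALB2, calretinin, was detected in all 13 cells. PRKCA, a protein kinase C listed for bipolar cells, was at 12.8 and 13.9 in E6 replicates 2 and 6, against 13.6, 6.9 and 6.4 in the 3 E5 cells. Single cells were bright for several others, with GRIK1 at 12.9 and PCP4 at 13.5 in E6 replicate 6, which also held MEIS2 at 14.2, and GNG13 at 13.7 in E6 replicate 7. TFAP2B, listed for amacrine and horizontal cells, was at 12.3 in E6 replicate 2, and CRYM, listed for Muller glia, at 11.2 in E6 replicate 3. CHAT, which makes acetylcholine, was at 13.8 in E5 replicate 3 alone. The part of these markers in the differences was not tested. CRYBA4, a beta crystallin counted among lens genes, had means of 11.65 ± 2.30 in E6 cells and 7.71 ± 1.49 in E5 cells, and its difference of 3.94 was -0.52 with all its probe sets averaged. The horizontal, bipolar, Muller glia, pigment epithelium, erythroid, microglia, and vascular and mesenchymal lists had 0 genes past the fold. In that order, only 2, 4, 3, 3, 3, 1 and 9 of their genes passed the filter. Of all genes passing, 12.6% were higher past the fold and 5.09% lower, so 0 in such short lists says little. LHX1, the most abundant gene of the horizontal list, ran from 5.51 to 9.70 in E6 cells, with its highest value in replicate 7. CSF1R, a receptor of microglia, did not pass the filter. In E6 replicate 7 the mean over the progenitor list was 9.39, against at most 7.84 in the other E6 cells.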

How the data were processed

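Single chick retinal cells were profiled 1 to an array, and 38535 log2 values per cell were deposited by the authors, with MAS5 as the tool per the submitters' processing notes (version not stated). Priming from the poly(A) tail and 35 PCR cycles favour 3′ ends and widen differences in yield, so a floor value does not show that a transcript was absent. Arrays have no read depth, so precision depends on how many cells were measured. Probe sets were named through the platform annotation: 27178 had 1 symbol, 177 several and 11180 none, and those with 1 symbol were used. The 96 control probe sets were left out, and the 95th percentile of 746 probe sets not designed on chicken genes measured background. Values were floored at log2 5.0, and means, detection at the 80th percentile and differences were computed with Python 3.11.15, pandas 2.3.3 and numpy 2.4.6. Known differences added to shuffled values came back in the means. That checks the arithmetic only and not the floor, the filter or the detection rule.

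The members and the gene lists were chosen with earlier results of these data known. Named genes were the 3 markers, the 12 leading genes by detection in each direction, and, in each list, the 3 with the largest difference and the 2 most abundant, with other genes of a list named only as those past the fold or as stated. Samples were grouped by title, and E6 replicate 1 was kept at E6. No test was run, since each age is 1 sample. Floors, array scaling, the filter, the probe set rule and the cells entering were varied, and the effects are given in the closing section. The series text speaks of 39 cells, against 41 here. No sequence is shown and no coordinates are given.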

Additional observations from a re-analysis of the deposited data

Results flagged for a closer look

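Of 74 series of E6 values examined, 26 had 1 cell standing far from the other 9. The cut used flags about 1 in 20 by chance only for independent series of normal values, so that rate does not apply here. Some series are genes chosen because few E6 cells detected them, where 1 cell standing apart largely follows from the choice. Several others are array and list values of the same cell, replicate 7. The count of 26 is therefore a description only. In replicate 7 the array median was 7.38, against at most 5.52 in the other E6 cells, and its background was 9.73. The same cell stood highest in the means over the retinal progenitor (9.39), Notch pathway (8.35), channels and receptors (7.96), horizontal (8.90), photoreceptor (7.80), Muller glia (9.60), pigment epithelium (7.38), lens (8.21), microglia (6.62), and vascular and mesenchymal (7.56) lists. It also stood highest for NES (9.52), TTC7A (8.19), EVA1CL (6.53) and CDRT1 (5.82).

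Among genes mostly undetected at E6, a single other E6 cell stood apart for APEH (14.56, replicate 5), RECQL (13.34, replicate 8), BET1 (12.54, replicate 9), DNM3 (12.50, replicate 2), MRPS36 (12.43, replicate 4), SEC24A (11.84, replicate 3), WDR59 (11.71, replicate 1), SULT1B1 (7.70, replicate 3) and SLCO3A1 (6.21, replicate 4). KIF21A stood apart by a low value, 7.52 in replicate 4.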

How the results depend on the processing

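No paired analysis was possible because no result comes from a test and replicate numbers only name cells. The counts of genes higher and lower past the fold (878 and 354) ran from 863 to 1067 and from 326 to 461 as each of the 13 cells was left out in turn, and were 882 and 365 without E6 replicates 1 and 7. Higher genes numbered 563 with E6 replicate 1 counted at E5, 1376 without a floor, 57 with the floor at the highest background and 444 with all probe sets of a gene averaged. Lower genes numbered 201 with all 5 E5 cells, 82 with the floor at the highest background and 149 with all probe sets averaged. The median difference of all genes was 0.03 after quantile normalization and 0.03 with a common 75th percentile, against 0.41, and 0.20 without E6 replicate 7. With detection at the 90th percentile, 70 of 139 genes on at E6 and 7 of 101 off at E6 still met their rules. Of the differences of single genes, 2 turned sign: PCBP3 was 0.63 with all 5 E5 cells, and CRYBA4 was -0.52 with all probe sets averaged. The causes were not tested. Signals near the floor carry no order.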

Other observations

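Counting all 5 E5 cells in place of the 3 moved the neuronal and cell cycle medians most. The ganglion cell list stood at 1.66, the neuron cytoskeleton list at 2.0, the neuronal RNA binding list at 1.63 and the cell cycle list at -1.01. The 3 cells had been chosen for ganglion cell transcripts and few cell cycle transcripts, so these moves largely follow from that choice and support nothing. The proteasome list stood at 2.24 with all 5 E5 cells. Of the 14 genes lower at E6 past the fold, 11 were detected in at least 1 of E5 replicates 4 and 5, against 59.4% of all genes passing the filter. In the E9 cells, 7 of the 14 were detected in at most 1 of 6, against 30.1% of all genes passing. MRPS36 was the 1 detected in at least 5 of 6, against 29.7%. The 14 were picked for detection in 3 E5 cells and rarity at E6, whereas all genes passing were not. Their shares in the other E5 cells and at E9 may therefore be partly built in by that choice. How much of them is built in was not tested.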
